A study of Homo sapiens with 6 samples.

Results

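The 38 genes described here encode the enzymes, transporters and regulatory kinases of glycolysis and a panel of hypoxia response genes. They were chosen by name, as the rows of the deposited count table that carry these gene symbols, and all 38 were found among its 60480 gene identifiers. The libraries come from OE-19, an established line of adenocarcinoma of the esophagogastric junction (AEG), grown in RPMI1640 medium with fetal bovine serum. The labels and methods used here describe no low-oxygen treatment of these cells. The series holds 3 control libraries (shControl, control knockdown) and 3 libraries with IGF2BP3 knocked down by shRNA (shIGF2BP3, IGF2BP3 KD). IGF2BP3 is an RNA-binding protein and a reader of m6A-modified mRNA, and the comparison asks how its loss changes the transcriptome of AEG cells. With only shControl and shIGF2BP3 libraries, effects of IGF2BP3 loss and other effects of the shRNA cannot be told apart. All libraries come from 1 cell line, and the labels do not say whether the replicates are separate cultures, so p-values measure only the spread between these libraries.

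Glycolysis turns glucose into pyruvate and yields ATP, and many tumor cells run it at a high rate even when oxygen is present. Lactate dehydrogenase reduces pyruvate to lactate, which monocarboxylate transporters carry across the membrane. The hypoxia response is led by hypoxia-inducible factor (HIF), whose alpha subunit is hydroxylated by EGLN enzymes when oxygen is at hand and is then degraded through the VHL ubiquitin ligase. When oxygen falls, HIF binds a short DNA element with the core ACGTG and turns on glycolytic genes together with genes for vessel growth, pH control and mitophagy.

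Library totals ranged from 53424071 to 69989087 counts, of which mitochondrial genes held 8.67% to 9.06%, and TMM scaling factors from 0.992 to 1.01. *IGF2BP3* had 7416, 7363 and 6532 counts in the control libraries and 777, 792 and 794 in the IGF2BP3 KD libraries, as the labels say. Epithelial markers were strongly expressed in every library, with *KRT8* at 137878 to 183316 counts and *EPCAM* at 27525 to 33300. After IGF2BP3 KD *EPCAM* and *ERBB2* were called higher (0.15 and 0.13 on the log2 scale) and *KRT18* lower (-0.07). The other epithelial markers were not called. Of 8 markers of other cell types 3 had enough counts to be tested. *CD3E* was at 0 in every library, *PTPRC*, *PECAM1* and *COL3A1* had at most 11 counts and *VWF* at most 28. *CD68* (2199 to 3359 counts) and *COL1A1* (1200 to 1875 counts) were both called higher after IGF2BP3 KD, at 0.54 and 0.50 on the log2 scale. The other tested marker, *PDGFRB* (14 to 39 counts), was not called (-0.29, edgeR adjusted p = 0.77). The 8 markers of other cell types summed to 54.6 to 61.3 CPM in control and 82.8 to 83.8 CPM in IGF2BP3 KD libraries, and their part in the results was not tested.

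Members of this gene group differed in both directions between IGF2BP3 KD and control libraries. Of the 37 members with enough counts to be tested, 9 fell and 8 rose after IGF2BP3 KD, and 20 were not called, which does not show that they did not change. A call is an adjusted p under 0.05 in the quasi-likelihood test of edgeR, and over all 19778 genes tested 11.1% were called lower and 10.6% higher. The shares among the members were 24.3% lower and 21.6% higher. Standard errors of the members ranged from 0.02 to 0.43, and neither this nor the later comparisons with all genes were matched for expression level. Calls fell on 14 of the 24 tested members that share exon bases with another annotated gene and on 3 of the 13 that share none. Their median log2 fold change was 0.00, against 0.01 over all genes tested. By role, 7 of 17 core glycolytic enzymes were lower and 1 was higher, while 5 of 9 tested hypoxia response genes outside the HIF regulators were higher and 1 was lower. CPM values (counts scaled to 1e6 per library, with TMM) of the 3 IGF2BP3 KD libraries did not overlap those of the 3 control libraries in 24 of the 37 members (64.9%), against 35.8% of all genes tested. Called changes were small, from -0.42 for *PFKFB3* to 0.58 for *MXI1* on the log2 scale, apart from *CA9* at 1.14.

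**Figure D1:**
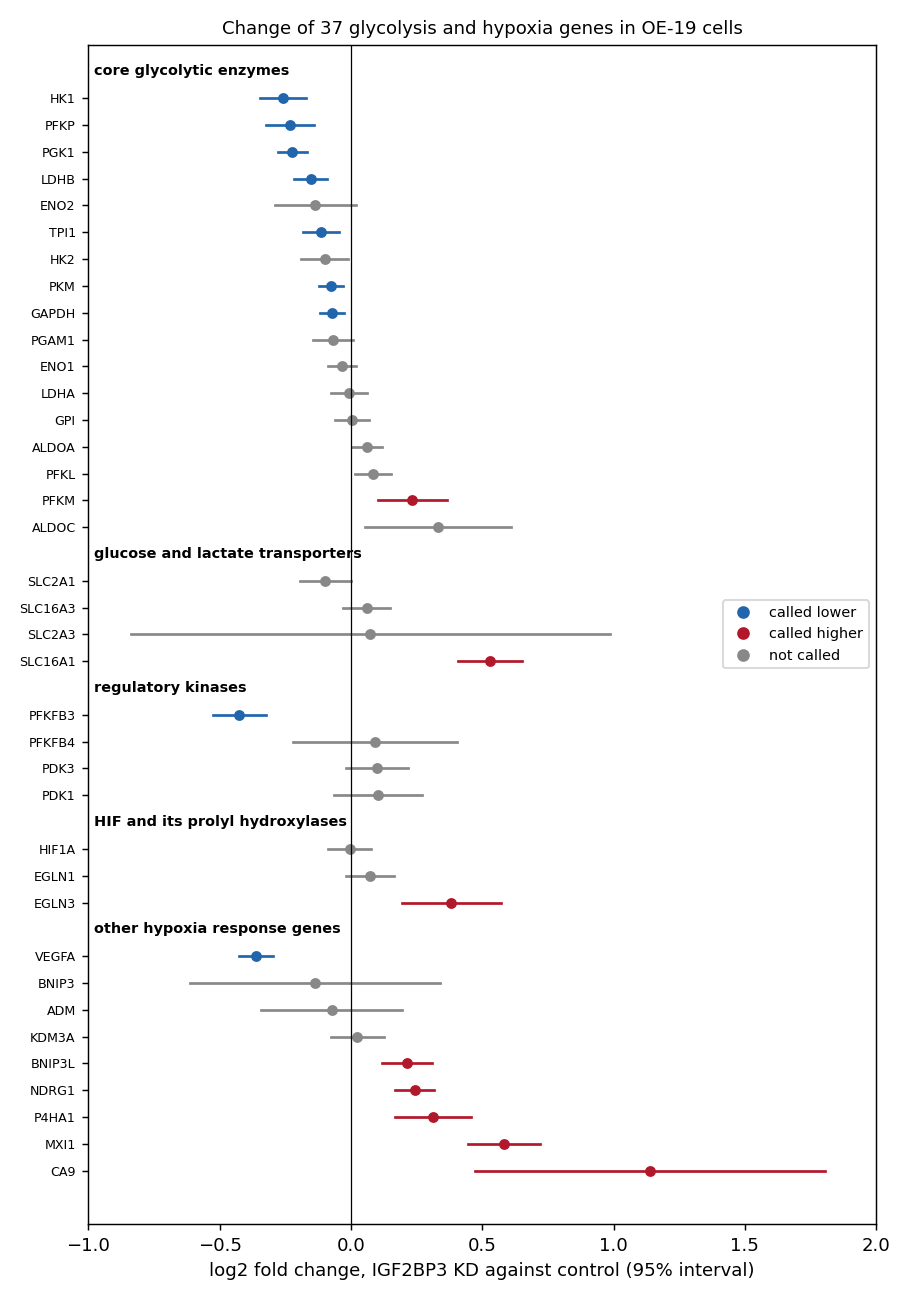
Log2 fold change of IGF2BP3 KD against control cells for the 37 tested genes (x axis), with 95% intervals as bars and genes sorted within their role on the y axis. Blue genes were called lower and red genes higher (adjusted p under 0.05 in edgeR). The called enzymes lie left of 0 except *PFKM*, and the called hypoxia response genes lie right of 0 except *VEGFA*.

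Promoter sequences are shown for members whose window holds the HIF core motif, since they let the reader set the letters beside the changes. The windows come from RefSeq on GRCh38.p14 and cover 250 bases before and 50 after the RefSeq start used for each gene. They were matched by symbol for 33 of the 38 members. *SLC16A1*, *SLC2A3*, *VEGFA*, *BNIP3L* and *NDRG1* had no match. ACGTG was searched on both strands, so that its reverse complement CACGT also counts, and matches that share bases count once. It was in 14 of the 33 windows (42.4%), against 21.4% of 35116 promoter windows of the same length, and in at least 2 places in 5 of the 33 (15.2%), against 3.4% of all. The members were chosen as glycolysis and hypoxia response genes, so the higher share is a description and no independent result. The 35116 windows were not limited to tested genes. Among the members with a window the motif was in 2 of 8 called lower, 2 of 5 called higher and 9 of 19 not called, and in that of *ANKRD37*, which was not tested. The stretches below give the called members with the motif (*CA9* and *P4HA1* higher, *PGK1* and *GAPDH* lower) and *LDHA*, which has 3 places and was not called. *PGK1* also has 3 places, the last of them past the start and not shown. Each runs 5′ to 3′ on the strand of its gene and ends before that RefSeq start, and capitals mark ACGTG or CACGT. Gene coordinates given below are from GENCODE v44, whose first start can lie further upstream. The stretches of *PGK1*, *GAPDH* and *P4HA1* therefore fall inside those coordinates.
CA9, chr9:35673898-35673926, plus strand: tcgtttccaatgCACGTacagcccgtaca
P4HA1, chr10:73096936-73096964, minus strand: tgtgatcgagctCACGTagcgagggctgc
PGK1, chrX:78104034-78104081, plus strand: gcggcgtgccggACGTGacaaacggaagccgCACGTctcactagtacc
GAPDH, chr12:6535171-6535200, plus strand: gctctgcggggtCACGTGtcgcagaggagc
LDHA, chr11:18394366-18394506, plus strand: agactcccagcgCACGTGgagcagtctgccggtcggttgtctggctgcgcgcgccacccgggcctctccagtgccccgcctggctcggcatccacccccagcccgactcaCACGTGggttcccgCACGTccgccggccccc
The genes with these letters thus include members that were higher, lower and not called. A match describes the letters in the window and is not a measured HIF site.

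The core enzymes were among the most abundant transcripts of the group. On a scale per length (CPM divided by annotated exon length in kilobases), the levels in control cells were highest for *GAPDH* (1213 ± 12.7, SD, n = 3), *PKM* (260 ± 3.14), *TPI1* (184 ± 8.35), *ENO1* (180 ± 3.54) and *PGK1* (140 ± 2.35). *TPI1* and *ENO1* differed by less than the SD of *TPI1*, and *ALDOA* (128 ± 2.31) and *LDHB* (128 ± 1.72) also differed by less than their SD. The lowest levels per length were those of *CA9* (0.382 ± 0.102) and *SLC2A3* (0.105 ± 0.0139) among tested members. The 17 core enzymes together took 0.979%, 0.983% and 0.985% of all counts in the control libraries (replicates 1, 2 and 3), against 0.947%, 0.942% and 0.95% in the IGF2BP3 KD libraries. The summed share was lower in every IGF2BP3 KD library than in every control library, with means of 0.982% and 0.946%. *GAPDH* and *PKM* weigh most in this sum, with means of 2905 and 2228 CPM in control libraries, and 9 of the 17 enzymes were not called. How often sums over other genes lack overlap was not computed.

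**Figure D2:**
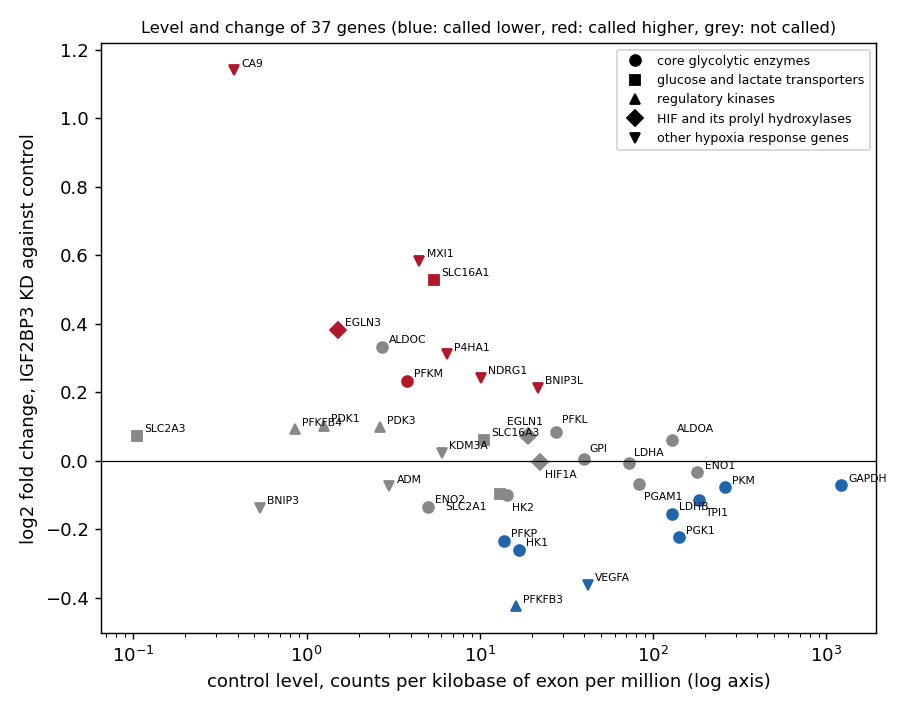
Level in control cells, in CPM per kilobase of annotated exon on a log axis, against the log2 fold change of IGF2BP3 KD for the 37 tested genes, with a marker shape for each role. The abundant enzymes on the right lie near or below 0, while the called rises lie at levels of 21.6 (*BNIP3L*) or less.

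Hexokinases trap glucose in the cell as glucose 6-phosphate. *HK1* (ENSG00000156515, chromosome 10, 69269984 to 69401884 on hg38) had 116, 111 and 119 CPM in the control libraries, here and below in the order of replicates 1, 2 and 3, and 97.6, 93.5 and 98.8 CPM in the IGF2BP3 KD libraries. All IGF2BP3 KD values were below all control values, and *HK1* fell by 0.26 on the log2 scale (standard error 0.04, adjusted p = 1.9e-04). This and the adjusted p-values that follow are from the edgeR fit, with Benjamini-Hochberg adjustment over all genes tested. *HK2*, the isoform often induced in tumors, had means of 84.8 and 79.1 CPM and was not called (log2 fold change -0.10, adjusted p = 0.10). *GPI*, which isomerizes glucose 6-phosphate to fructose 6-phosphate, had means of 425 and 426 CPM, with a 95% interval of the log2 fold change from -0.06 to 0.07.

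Phosphofructokinase catalyzes the committed step, and its 3 genes differed in their change. *PFKP* (ENSG00000067057, chromosome 10, 3066333 to 3137718), the platelet type, had 101, 109 and 110 CPM in control libraries and 92.4, 90.9 and 88.8 CPM in IGF2BP3 KD libraries, without overlap, and fell by 0.23 on the log2 scale (standard error 0.04, adjusted p = 8.0e-04). *PFKM* (ENSG00000152556, chromosome 12, 48105139 to 48146404), the muscle type, had 27.4, 26.3 and 28.4 CPM in control libraries and 32.3, 31.2 and 33.1 CPM in IGF2BP3 KD libraries. *PFKM* was the only core enzyme called higher (log2 fold change 0.23, standard error 0.06, adjusted p = 0.012), and the call was lost without control replicate 2 (adjusted p = 0.058) and without IGF2BP3 KD replicate 3 (adjusted p = 0.062). *PFKM* shares 516 exon bases with *SENP1* on the opposite strand, whose log2 fold change was -0.01. *PFKL*, the liver type and the most abundant of the 3 per length (27.6 in control cells), had means of 247 and 261 CPM and was not called (log2 fold change 0.08, adjusted p = 0.08).

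Aldolase and triose phosphate isomerase split and interconvert the 3-carbon sugars. *TPI1* (ENSG00000111669) had 524, 489 and 482 CPM in control libraries and 457, 456 and 469 CPM in IGF2BP3 KD libraries. These ranges lie close together, and *TPI1* fell by 0.11 on the log2 scale (standard error 0.03, adjusted p = 0.018), a call lost without IGF2BP3 KD replicate 1 or 2 (adjusted p = 0.082 and 0.083). *ALDOA* had a log2 fold change of 0.06 and *ALDOC* of 0.33, and neither was called. Of the 3829 exon bases of *ALDOA*, 1639 are shared with another annotated gene on the same strand, so its count and level are uncertain. *ALDOC* is low, at 6.6 to 7.75 CPM in control and 7.49 to 9.71 CPM in IGF2BP3 KD libraries, and was called higher without IGF2BP3 KD replicate 3 (0.44, adjusted p = 0.032).

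*GAPDH* (ENSG00000111640, chromosome 12, 6534512 to 6538374) oxidizes glyceraldehyde 3-phosphate and is also the transcript against which the qPCR of the study was normalised. It had 2884, 2893 and 2940 CPM in control libraries and 2737, 2765 and 2788 CPM in IGF2BP3 KD libraries. The groups did not overlap, and *GAPDH* fell by 4.9% (log2 fold change -0.07, standard error 0.02, adjusted p = 0.022). The *GAPDH* call was lost without control replicate 3 and without IGF2BP3 KD replicate 1 or 2, with adjusted p-values of 0.092, 0.11 and 0.058. *GAPDH* shares 422 of its 2396 exon bases with an unnamed gene on the opposite strand. *PGK1* (ENSG00000102144, chromosome X, 77910739 to 78129295), which makes the ATP of the next step, changed more. *PGK1* had 776, 761 and 750 CPM in control libraries and 651, 646 and 663 CPM in IGF2BP3 KD libraries. It fell by 14.3% (log2 fold change -0.22, standard error 0.02, adjusted p = 7.3e-06), with the smallest adjusted p of the core enzymes.

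Of the enzymes after *PGK1*, pyruvate kinase and 1 lactate dehydrogenase subunit were called. *PGAM1* and *ENO1* were not called, with log2 fold changes of -0.07 and -0.03, and *ENO2*, the neuronal enolase, had a value of -0.13 (adjusted p = 0.22). Without control replicate 1, *PGAM1* was called lower (-0.11, adjusted p = 0.012). *PKM* (ENSG00000067225, chromosome 15, 72199029 to 72231819), pyruvate kinase, had 2253, 2200 and 2232 CPM in control libraries and 2101, 2115 and 2122 CPM in IGF2BP3 KD libraries. *PKM* fell by 0.08 on the log2 scale (standard error 0.02, adjusted p = 0.017), and the call was lost without control replicate 3 or IGF2BP3 KD replicate 1 (adjusted p = 0.058 and 0.083). Of the lactate dehydrogenase subunits, *LDHB* (ENSG00000111716, chromosome 12, 21635342 to 21757857) had 381, 377 and 387 CPM in control libraries and 344, 333 and 352 CPM in IGF2BP3 KD libraries and fell by 10.1% (log2 fold change -0.15, adjusted p = 9.7e-04). *LDHB* shares 997 of its 2983 exon bases with an unnamed gene on the same strand, so its count and level are uncertain. That gene had 21 counts or less in every library, which does not show how shared reads were assigned. *LDHA* had means of 437 and 435 CPM, with a 95% interval of the log2 fold change from -0.07 to 0.06.

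Pseudogenes named after a member could take or lend reads, because the treatment of reads with several matches is not given in the sources used here. The table lists 153 such pseudogenes for 18 members, among them 65 of *GAPDH*. Their summed counts were 0.302% to 0.407% of the *GAPDH* counts per library, 0.482% to 0.828% for *TPI1*, 0.581% to 1.07% for *PGAM1* and at most 0.253% for *LDHA*. The shares were larger for the low genes *BNIP3* (24.9% to 56.8%) and *SLC2A3* (11.5% to 105%), whose counts are uncertain. Reads dropped for having several matches would be in neither count, so these shares set no limit on the uncertainty of any member.

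Among the transporters, the lactate transporter *SLC16A1* rose. *SLC16A1* (ENSG00000155380, chromosome 1, 112911847 to 112957593) encodes MCT1, which carries lactate and pyruvate with a proton in either direction. It had 34.0, 36.0 and 33.8 CPM in control libraries and 50.3, 47.8 and 51.7 CPM in IGF2BP3 KD libraries. All IGF2BP3 KD values were above all control values, by 44.3% on the fitted mean (log2 fold change 0.53, standard error 0.06, adjusted p = 3.9e-06). *SLC16A3*, which encodes the lactate exporter MCT4, had means of 98.0 and 102 CPM and was not called (0.06, adjusted p = 0.37). The glucose transporter *SLC2A1* (GLUT1) had means of 85.9 and 80.3 CPM and was not called (-0.10, adjusted p = 0.16). *SLC2A3* (GLUT3) was nearly absent, with 41 to 61 counts in control and 19 to 87 counts in IGF2BP3 KD libraries, and its interval ran from -0.84 to 0.99.

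Of the regulatory kinases, only *PFKFB3* was called. It makes fructose 2,6-bisphosphate, the strongest activator of phosphofructokinase. *PFKFB3* (ENSG00000170525, chromosome 10, 6144934 to 6254644) had 94.7, 103 and 98.4 CPM in control libraries and 70.2, 75.6 and 75.1 CPM in IGF2BP3 KD libraries. It fell by 25.5% (log2 fold change -0.42, standard error 0.05, adjusted p = 5.0e-06), the largest fall among the 37 tested members. *PFKFB4*, which makes the same regulator at a lower level (5.23 and 5.57 CPM), had a value of 0.09 with an interval from -0.22 to 0.40. *PDK1* and *PDK3*, kinases that switch off pyruvate dehydrogenase, had log2 fold changes of 0.10 each and were not called.

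*HIF1A* itself was not called, with 115, 112 and 115 CPM in control libraries and 112, 118 and 111 CPM in IGF2BP3 KD libraries and a 95% interval of the log2 fold change from -0.09 to 0.08. The hypoxia response acts largely through the stability of the HIF1A protein, which these libraries do not measure. Of the 2 prolyl hydroxylases, *EGLN3* (ENSG00000129521, chromosome 14, 33924227 to 34462774), itself a HIF target, rose. *EGLN3* had 10.7, 11.3 and 11.4 CPM in control libraries and 15.1, 14.8 and 13.6 CPM in IGF2BP3 KD libraries, without overlap (log2 fold change 0.38, standard error 0.09, adjusted p = 0.0049). *EGLN1*, the main oxygen sensor, had a value of 0.07 and was not called (adjusted p = 0.28). Of its 5381 exon bases, 3004 are shared with another annotated gene on the same strand.

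The hypoxia response genes split, with *VEGFA* lower and 5 others higher. *VEGFA* (ENSG00000112715, chromosome 6, 43770184 to 43786487), the main angiogenic growth factor, had 590, 626 and 602 CPM in control libraries and 474, 484 and 458 CPM in IGF2BP3 KD libraries. The groups were far apart, and *VEGFA* fell by 22.1% (log2 fold change -0.36, standard error 0.03, adjusted p = 2.7e-07), the smallest adjusted p of all members. *MXI1* (ENSG00000119950, chromosome 10, 110207605 to 110287365), an antagonist of MYC, had 27.7, 26.2 and 25.4 CPM in control libraries and 42.1, 38.5 and 38.3 CPM in IGF2BP3 KD libraries. It rose by 49.9% (log2 fold change 0.58, standard error 0.06, adjusted p = 5.0e-06).

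*CA9* (ENSG00000107159, chromosome 9, 35673928 to 35681159), a carbonic anhydrase of the cell surface and a widely used marker of hypoxia, was low in both groups. It had 30, 53 and 37 counts in control libraries and 82, 74 and 84 counts in IGF2BP3 KD libraries, or 0.438 to 0.761 and 1.19 to 1.52 CPM. The groups did not overlap, and the log2 fold change was 1.14 with a wide 95% interval from 0.47 to 1.81 (adjusted p = 0.015). The call was lost without control replicate 1 (0.95, adjusted p = 0.056) and without IGF2BP3 KD replicate 1 (1.04, adjusted p = 0.062). *CA9* shares 571 of its 1598 exon bases with *ARHGEF39* on the opposite strand, which had 1212 to 1584 counts per library and a log2 fold change of -0.08 (adjusted p = 0.49), and the part of these reads in the *CA9* count was not tested.

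*P4HA1* (ENSG00000122884, chromosome 10, 73007217 to 73096974), a subunit of the collagen prolyl hydroxylase, had 19.9, 19.9 and 20.1 CPM in control libraries and 23.7, 25.8 and 24.9 CPM in IGF2BP3 KD libraries. The control values had an SD of 0.147 CPM and lay below every IGF2BP3 KD value (log2 fold change 0.31, standard error 0.07, adjusted p = 0.0031). *NDRG1* (ENSG00000104419), a stress-induced gene often used as a readout of hypoxia, had 121, 125 and 118 CPM in control libraries and 142, 143 and 146 CPM in IGF2BP3 KD libraries (0.24, standard error 0.04, adjusted p = 9.3e-05). *BNIP3L* (ENSG00000104765), a mitophagy receptor, had 92.7, 86.1 and 90.0 CPM in control libraries and 108, 104 and 99.6 CPM in IGF2BP3 KD libraries (0.21, standard error 0.04, adjusted p = 0.0020). Both genes thus rose without overlap between the groups. The related receptor *BNIP3* was low (1.74 to 2.43 CPM) and not called (-0.14, interval from -0.61 to 0.34), as were the vasodilator peptide gene *ADM* (-0.07) and the histone demethylase gene *KDM3A* (0.02). *ANKRD37* had 0, 5 and 0 counts in control libraries and 6 in each IGF2BP3 KD library, and was too low to be tested.

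**Figure D3:**
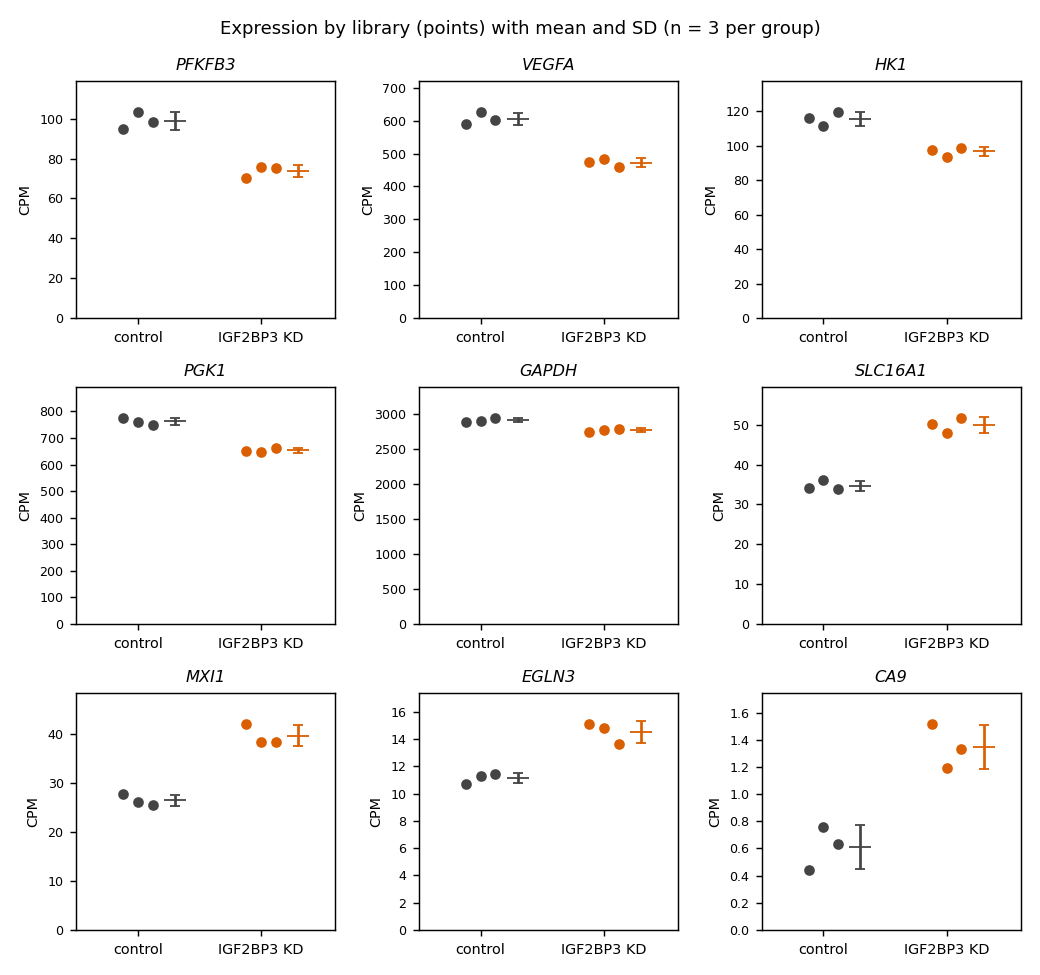
Expression in CPM (y axes, starting at 0) of 9 called genes in each control and IGF2BP3 KD library (points), with the mean and SD of the 3 libraries of a group beside them. The points of the groups do not overlap in any panel, from the narrow gap of *GAPDH* to the rise of *CA9* from about 0.61 to 1.35 CPM.

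Related genes were also compared as a ratio of their counts within each library, which does not depend on library scaling. In 8 of 12 pairs the 3 IGF2BP3 KD ratios did not overlap the 3 control ratios. Most of these pairs hold a member already called, and the share over pairs of other genes was not computed. For single genes, 35.8% of all tested had CPM values without overlap. A two-sided exact permutation test of 3 against 3 libraries cannot give a p below 0.1, which these 8 pairs reached (0.15 after Benjamini-Hochberg adjustment over the 12 pairs), so none passes the threshold. The log2 ratio of *PFKM* to *PFKP* was -1.88, -2.05 and -1.96 in control libraries and -1.51, -1.54 and -1.43 in IGF2BP3 KD libraries, a shift of 0.47. That of *SLC16A1* to *SLC16A3* went from a mean of -1.50 ± 0.06 to -1.03 ± 0.06 (SD, n = 3), also a shift of 0.47. The ratio of *PFKFB4* to *PFKFB3* shifted by 0.52, and that of *EGLN3* to *EGLN1* by 0.31. The ratio of *LDHB* to *LDHA* fell by 0.15, from -0.27, -0.19 and -0.13 to -0.33, -0.36 and -0.35, and lay further toward *LDHA* in each IGF2BP3 KD library than in any control library. The ratios of *HK1* to *HK2* and of *ENO2* to *ENO1* shifted by -0.16 and -0.10, also without overlap. The ratio of *PDK3* to *PDK1* was 1.31 in both groups. That of *SLC2A3* to *SLC2A1* spread widely among the IGF2BP3 KD libraries, from -7.82 to -5.86, as their *SLC2A3* counts did.

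**Figure D4:**
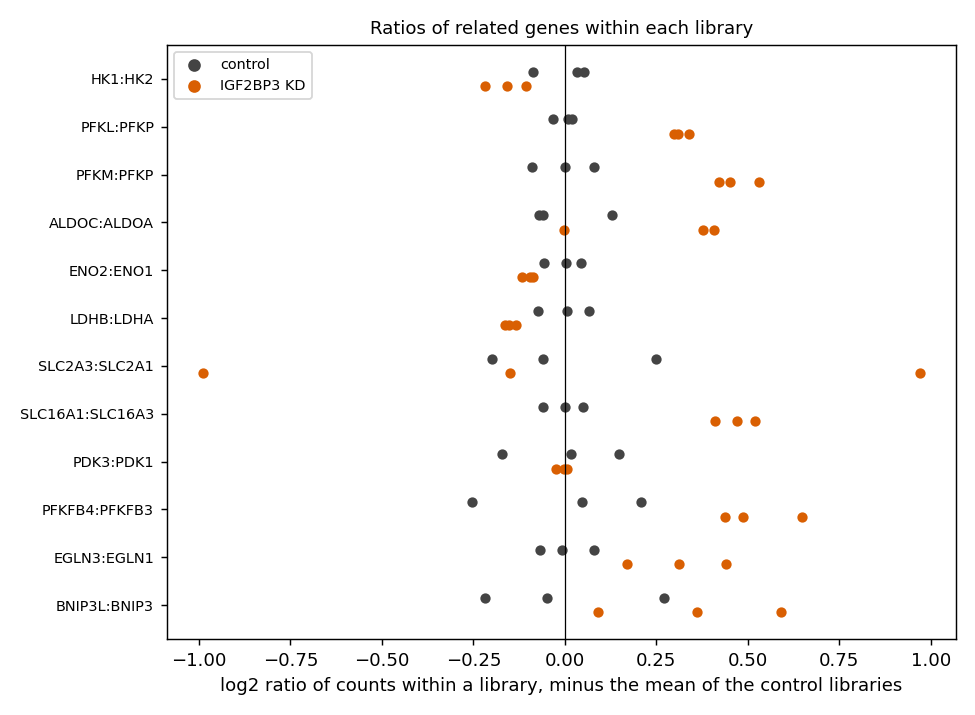
Log2 ratio of the counts of related genes within each library, less the mean of the control libraries (x axis), for the 12 pairs on the y axis, with 3 control and 3 IGF2BP3 KD libraries as points. The pairs of *PFKP*, *SLC16A3* and *PFKFB3* show the clearest shifts to the right. *HK1* to *HK2*, *LDHB* to *LDHA* and *ENO2* to *ENO1* show small ones to the left.

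Other genes of these pathways were followed in 6 lists with 106 genes, of which 91 were tested. Of these, 20 were lower and 12 were higher, or 22% and 13.2%, against 11.1% and 10.6% of all genes tested, with a median log2 fold change of -0.03. In the pyruvate dehydrogenase complex and its regulators, which turn pyruvate into acetyl-CoA within the mitochondria, 4 of 8 tested genes were lower and 1 was higher. *DLAT*, the acetyltransferase core of the complex, fell from 112 ± 3.35 to 65.0 ± 2.78 CPM (SD, n = 3), a log2 fold change of -0.79 (adjusted p = 3.6e-09). *PDHX*, which tethers another subunit to this core, fell by 0.29, and *PDK2*, a kinase that inhibits the complex, rose by 0.32 (adjusted p = 6.2e-04 and 5.2e-04). Of 7 pentose phosphate genes, 3 were lower and 0 higher: *TKT* (transketolase) at -0.40, *PGD* at -0.36 and *TALDO1* at -0.11. With DESeq2, and with at least 10 counts in every library, 5 of these genes were lower.

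Among other glycolytic isoforms and side enzymes, 4 of 12 tested genes were lower and 1 was higher (0 without control replicate 1, IGF2BP3 KD replicate 1 or IGF2BP3 KD replicate 3), with *TIGAR*, a fructose 2,6-bisphosphatase, at -0.58, *PFKFB2* at -0.39 and the hexokinase *HKDC1* at -0.23. Among other transporters, 0 of 13 were lower (1 without IGF2BP3 KD replicate 3) and 4 were higher, with *SLC2A10* at 0.59, *BSG*, the chaperone of monocarboxylate transporters, at 0.28 and the pyruvate carrier subunit *MPC2* at 0.25. Of 17 other HIF pathway regulators, 4 were lower and 1 was higher: *VHL* rose from 56.2 ± 1.75 to 66.9 ± 1.18 CPM (0.25, adjusted p = 9.7e-04), and *EPAS1*, which encodes HIF2A, fell from 93.2 ± 0.863 to 79.5 ± 4.26 CPM (-0.23, adjusted p = 0.0013). *ELOC*, a partner of VHL, was at -0.28. Of 34 other hypoxia target genes, 5 were lower and 5 were higher, or 14.7% each, against 11.1% and 10.6% of all genes tested. The lower count was 2 without control replicate 3, IGF2BP3 KD replicate 1 or IGF2BP3 KD replicate 3 and 3 without control replicate 2 or IGF2BP3 KD replicate 2, and the higher count was 3 without control replicate 2 or IGF2BP3 KD replicate 3. The named genes of this list were *DDIT4*, an inhibitor of mTORC1, at -0.61, *STC2* at -0.49 and *HMOX1*, heme oxygenase, at 0.43.

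The 3′ UTRs of the members were searched for GATTACT and ACACATC, 2 words of 7 bases that an earlier look at these data had singled out, so the shares of changed genes given for them are a description and no independent support. Of all tested genes with GATTACT 36.2% were lower, and of those with ACACATC 29.2% were higher, against 13.9% lower and 12.9% higher among genes with neither word. Of the tested genes with a 3′ UTR of at least 50 bases, 7.8% hold GATTACT and 9.7% hold ACACATC. Neither word is held by 11556 of these 13747 genes. Among the 38 members 2 hold GATTACT and 2 hold ACACATC. Of the 37 tested members 34 hold neither word, and so do 16 of the 17 called members, 9 of them lower and 7 higher. *SLC16A1* holds both words, and *BNIP3* and *SLC2A3*, which were not called, hold the others. The sites are shown on the minus strand of hg38, which is that of each gene, with coordinates of the word and exons from GENCODE v44, with the word in capitals.
SLC16A1, chr1:112911913-112911919, last exon: ataaaaatgagGATTACTgttggtgaggg
SLC16A1, chr1:112913018-112913024, last exon: tggtaaatacaACACATCtaattaaatgt
BNIP3, chr10:131968484-131968490, last exon: gttcgttagtgGATTACTtctgagcttgc
SLC2A3, chr12:7919814-7919820, last exon: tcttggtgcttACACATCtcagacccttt
Of the named genes of the other lists, *VHL* and *SLC2A10* hold ACACATC, and *DLAT*, *DDIT4* and *TKT* hold neither word.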

How the data were processed

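RNA-seq libraries of OE-19 cells were made from poly(A) RNA with a directional kit and sequenced with paired reads of 150 bases. The authors cleaned reads with fastp, mapped them to hg38 with HISAT2 and deposited featureCounts counts per gene without normalization. Versions, annotation release and strand setting are not given in the sources used here, so counts in overlapping genes are uncertain.

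Here 132 repeated entries were dropped and the remaining genes went through edgeR 4.0.16 under R 4.3.3 (filterByExpr with a minimum count of 10 and minimum total of 15, TMM, robust glmQLFit, glmQLFTest, Benjamini-Hochberg over 19778 genes, threshold 0.05). Standard errors and 95% intervals derive from the F statistic. DESeq2 1.42.0 was an alternative. Tests were checked on simulated data. A chi-square per degree of freedom of 9.86 to 17.6 within groups gives no sign of a repeated library. Gene positions, exon lengths, overlaps and 3′ UTRs (canonical transcripts) come from GENCODE v44, which holds 99.97% of the tested genes. Levels per length divide CPM by summed exon length, which rare exons lengthen.

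The 38 members, the other lists, the 3′ UTR words and the named genes were chosen with earlier results of these data known. All members are named, and from each other list the 3 called genes with the smallest p and a mean of at least 1 CPM. The replicate numbers did not pair the libraries.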

Additional observations from a re-analysis of the deposited data

How the results depend on the processing

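All 37 tested members kept their direction where called and their side of the threshold with DESeq2, RLE scaling, no filter on low counts and at least 10 counts in every library. With each library left out in turn, 6 to 10 members were lower and 7 or 8 higher, and 12 of the 17 called members were called in all 11 alternatives. The calls of *PFKM*, *TPI1*, *GAPDH*, *PKM* and *CA9* were each lost in at least 1 of these fits, and *ALDOC* and *PGAM1* were each gained in 1. At an adjusted p under 0.01, 6 members were lower and 6 higher. Among the 13 members that share no exon base with another gene, 2 were lower (15.4%) and 1 was higher (7.7%), against 11.1% and 10.6% of all genes tested. So 3 of 13 were called, against 14 of the 24 tested members that share exon bases, and the cause was not tested. Pairs of related genes without overlap numbered 8 to 10 with each library left out. Leaving out a library cannot lower this count, so it does not test dependence on single libraries. Among the other lists, lower pentose phosphate genes went from 3 to 5 with DESeq2 and with at least 10 counts in every library, and higher hypoxia targets from 5 to 3 without the filter on low counts. With single libraries left out, lower hypoxia targets went down to 2 and higher ones to 3.

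With the replicate number as a block, 9 members were lower and 8 higher, the same counts as without it, and 2197 and 2084 genes over all. Deviations of same-numbered libraries from their group means correlated between -0.032 and -0.005, so the numbers give no pairing. Depth bears most on the members with few counts, such as *CA9*, *BNIP3* and *SLC2A3*. The *SLC2A3* counts also differed widely between IGF2BP3 KD libraries.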
